A study of Sus scrofa with 2 samples.

Results

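The transcription factors FOXO1 and FOXO3 and 6 genes known as their targets or partners, TXNIP, FBXO32, NUPR1, KLF9, SESN1 and SESN3, were followed through the granulosa cells of 2 pig antral follicles. These 8 genes were taken by symbol from the 22342 features of the deposited gene list, each matched 1 feature, and all 8 were counted in both follicles. They were chosen by name with earlier results of these data known, among them the FBXO32 level of each follicle and of a group of AF76 cells, so the contrasts of that group and of the follicles are described and no test is made on them. The cells came from 1 Landrace × Yorkshire gilt aged 210 days that had received pregnant mare serum gonadotropin, a hormone preparation that drives follicle growth. The follicles were judged healthy, exceeded 7 mm in diameter and were opened by puncture, and the loose granulosa cells were loaded on the 10x Genomics 3' platform. Each follicle gave 1 library, AF75 (the submitters' antral follicle 1) and AF76 (antral follicle 2), so follicle, library and handling cannot be told apart, and no p-value is given. Both follicles share the animal and the hormone treatment, and there was no untreated follicle and no follicle labelled as atretic.

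Forkhead box O factors act at the end of the insulin, PI3K and AKT pathway. When AKT is active it phosphorylates them and they leave the nucleus, and when growth factor or gonadotropin signalling falls they stay in the nucleus and drive genes of arrest, atrophy, stress resistance and cell death. FOXO1 is abundant in granulosa cells of growing follicles and is held down by follicle-stimulating hormone, and FOXO factors are known for their part in atresia, the loss of a follicle through death of its granulosa cells. As FOXO activity is set mostly by phosphorylation, messenger levels do not report it.

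The genes lie on 5 chromosomes of Sscrofa11.1 in the RefSeq annotation. FOXO1 spans chr11:15317222-15410059, FOXO3 chr1:74626673-74760323, TXNIP chr4:99348589-99351760 and FBXO32 chr4:15895875-15925929. NUPR1 spans chr3:18402781-18404411, KLF9 chr1:223723613-223747661, SESN1 chr1:75056731-75170374 and SESN3 chr9:27207239-27279205. The 250 bases before the annotated start of each gene were searched on both strands for the forkhead letters GTAAACA, the insulin response letters CAAAACA and the E-box letters CACGTG. These were held by 2.28%, 4.18% and 6.39% of 19559 RefSeq protein-coding promoters of the same length. The windows of 2 members held a match. TXNIP had 1 GTAAACA, at bases -137 to -131 from the start, and FOXO3 had 1 GTAAACA at -179 to -173 and 2 CACGTG, at -190 to -185 and -104 to -99. No match stood in the windows of FOXO1, FBXO32, NUPR1, KLF9, SESN1 or SESN3, which says only that these letters are not there. The windows with a match are printed beside those of FOXO1 and of FBXO32, the member that differed most between the follicles, 5′ to 3′ on the gene's strand from the same RefSeq build, with each match in capitals.
TXNIP, chr4:99348339-99348588, plus strand: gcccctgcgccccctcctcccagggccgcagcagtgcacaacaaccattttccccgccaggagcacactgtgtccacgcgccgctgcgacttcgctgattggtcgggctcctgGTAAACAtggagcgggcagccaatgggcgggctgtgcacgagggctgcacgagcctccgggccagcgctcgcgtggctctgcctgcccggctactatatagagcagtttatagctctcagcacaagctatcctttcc
FOXO3, chr1:74626423-74626672, plus strand: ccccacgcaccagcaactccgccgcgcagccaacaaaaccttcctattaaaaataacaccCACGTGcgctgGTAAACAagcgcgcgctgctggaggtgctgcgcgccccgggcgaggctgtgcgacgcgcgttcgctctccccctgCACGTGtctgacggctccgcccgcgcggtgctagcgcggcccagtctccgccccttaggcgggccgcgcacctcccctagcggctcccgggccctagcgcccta
FOXO1, chr11:15410060-15410309, minus strand: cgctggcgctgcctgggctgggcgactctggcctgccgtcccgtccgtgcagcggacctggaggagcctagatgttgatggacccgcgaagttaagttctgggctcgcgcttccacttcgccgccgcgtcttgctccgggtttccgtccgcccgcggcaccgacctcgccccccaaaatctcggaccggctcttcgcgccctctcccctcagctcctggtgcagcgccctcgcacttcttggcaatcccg
FBXO32, chr4:15895625-15895874, plus strand: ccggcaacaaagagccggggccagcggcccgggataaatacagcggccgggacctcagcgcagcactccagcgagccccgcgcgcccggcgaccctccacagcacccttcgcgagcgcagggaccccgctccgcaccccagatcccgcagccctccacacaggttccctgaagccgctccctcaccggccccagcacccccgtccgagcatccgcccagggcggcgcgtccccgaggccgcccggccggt

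Counts were of unique molecular identifiers (UMIs), and levels are given in CPM, counts per 1000000 UMIs, with a gene's UMIs and all UMIs summed over the cells of a group. Intervals are 95% and cover counting error only. Barcodes with 2000 to 5000 genes and under 7% mitochondrial UMIs were kept, 9362 of 14289 in AF75 and 7843 of 15548 in AF76, with medians of 11254.5 and 13902 UMIs. The libraries shared 56 barcodes, 18 of them within these limits. Clustering without the 8 genes gave 6 clusters. Cluster 0, led by TGFB3 and ENPP2, held 6370 cells of AF75 and 5898 of AF76, cluster 1, led by ARPP21 and ALPK2, held 2336 and 946, and cluster 3, led by the cell division gene TOP2A, held 453 and 121. Cluster 4, led by SPP1, held 177 and 181, and cluster 5, led by interferon-induced genes, held 26 and 27. Cluster 2, led by CEMIP, CCDC80 and CRABP2, held 670 cells of AF76, 8.54% of that library, and 0 of AF75, where a count of 0 allows a share of up to 0.032% by the limit of 3 cells, or 0.0394% as the Clopper-Pearson bound. Its cells were shallow, with a median of 6415 UMIs, and gave 4.32% of the UMIs of AF76.

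FOXO1 stood at 32.4 CPM (31.4 to 33.5) in AF75 and 59.9 CPM (58.5 to 61.4) in AF76. It was seen in 29.4% and 43.3% of cells, or in 14.5% and 22.6% once every cell was thinned to 5000 UMIs, with shallower cells left out. The higher level of AF76 lay mostly in 1 cluster. FOXO1 reached 506 CPM (486 to 527) in cluster 2, where 89.4% of cells had a UMI, against 38.5 CPM in cluster 0 of the same follicle and 36.1 CPM in cluster 0 of AF75. Cluster 2 gave 36.5% of the FOXO1 UMIs of AF76. Elsewhere the gene ranged from 21.9 CPM in cluster 1 of AF75 to 67.8 CPM in cluster 3 of AF76, among clusters of at least 50 cells.

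FOXO3, the paralog known for keeping primordial follicles dormant, varied less. Its level was 62.6 CPM (61.1 to 64.1) in AF75 and 68.5 CPM (66.9 to 70.0) in AF76. It was highest in cluster 2, at 170 CPM (159 to 182) in 64.9% of cells, and stood between 48.3 and 69.2 CPM in the other clusters of at least 50 cells. Cluster 2 gave 10.7% of its UMIs. The remaining family members were barely counted, with 139 UMIs of FOXO4 in AF75 and 155 in AF76, and 7 of FOXO6 in each.

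TXNIP, which binds thioredoxin and lowers glucose uptake, stood at 41.7 CPM (40.6 to 43.0) in AF75 and 131 CPM (129 to 133) in AF76. In cluster 2 it reached 1607 CPM (1571 to 1643) and was seen in 97.8% of cells, against 53.3 CPM in cluster 0 of AF76. Cluster 2 gave 53.1% of its UMIs in AF76. A second high level, smaller, was found in both follicles. In cluster 4 TXNIP stood at 107 CPM (93.6 to 122) in AF75 and 133 CPM (119 to 148) in AF76, 2.43 and 2.49 times cluster 0 of the same follicle. Immune markers summed to 25.3 and 148 CPM in this cluster, against 14.6 and 12.1 CPM in cluster 0. The leukocyte barcodes within the limits of AF76 were 10, with 90 UMIs of TXNIP, 852 CPM (685 to 1047), where cluster 4 had 330 UMIs. In AF75 there was 1 such barcode, with 1 UMI of TXNIP, where cluster 4 had 221. In AF76 1 cell held 18.2% of the TXNIP UMIs of cluster 4, and the leading partners of TXNIP across its 180 thinned cells were CD74 (0.511) and CTSS (0.502), named after their values were seen. The part of leukocytes in this level was not tested.

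FBXO32, the muscle atrophy ubiquitin ligase also called atrogin-1, was the most uneven member. It had 263 UMIs in the whole of AF75, 2.37 CPM (2.09 to 2.67), and 2758 in AF76, 25.3 CPM (24.4 to 26.3). In cluster 2 the level was 470 CPM (450 to 490), with a UMI in 77.0% of cells, and this cluster gave 80.1% of the FBXO32 UMIs of AF76. Cluster 0 had 1.17 CPM in AF75 and 3.76 CPM in AF76, with a UMI in 1.29% and 4.27% of cells at medians of 11367.5 and 14247 UMIs. For comparison, 26 deposited barcodes of AF76 with leukocyte genes, of median depth 4017.5 UMIs, had 2 UMIs of FBXO32, in 7.69% of barcodes (0.946% to 25.1%), and 4 such barcodes of AF75 had 0. These are too few to set a background level, and no expression is read from shares of this size. In cluster 3 of AF76 the 24.7 CPM rested on 1 cell with 61.8% of the UMIs.

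NUPR1, a small stress-induced chromatin protein, stood at 86.6 CPM (84.8 to 88.3) in AF75 and 180 CPM (177 to 182) in AF76. Cluster 2 reached 2157 CPM (2115 to 2199), with a UMI in 97.3% of cells, and gave 51.8% of the NUPR1 UMIs of AF76. Unlike FOXO1, NUPR1 was also higher in cluster 1 than in cluster 0 of both follicles, at 124 against 71.6 CPM in AF75 and 154 against 79.9 CPM in AF76. Its 662 CPM in cluster 5 of AF75 came from 1 cell that held 97.2% of the UMIs, and the level without that cell was 19.1 CPM.

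KLF9, a Krüppel-like factor induced by glucocorticoids, was a low gene, at 3.66 CPM (3.31 to 4.03) in AF75 and 4.21 CPM (3.83 to 4.61) in AF76. Cluster 2 stood apart here too, at 44.2 CPM (38.4 to 50.7) in 20.5% of cells, and gave 45.4% of the UMIs of AF76. Cluster 0 had 2.52 and 2.17 CPM, with a UMI in 2.84% and 2.85% of cells. The leukocyte barcodes of AF76 had 1 UMI of KLF9 in all, which sets no background level.

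The sestrins, stress-induced inhibitors of TORC1 signalling, did not follow 1 pattern. SESN1 had nearly equal levels in the follicles, 133 CPM (131 to 135) in AF75 and 138 CPM (136 to 140) in AF76, and was the only member with less in cluster 2 than in cluster 0. Cluster 0 had 169 CPM of SESN1 in the one follicle and 151 CPM in the other, cluster 1 had 46.5 and 102 CPM, in the same order, and cluster 2 had 50.8 CPM (44.6 to 57.7). SESN3 stood at 9.88 CPM (9.31 to 10.5) in AF75 and 11.3 CPM (10.7 to 11.9) in AF76. It reached 44.9 CPM (39.0 to 51.3) in cluster 2 against 10.0 CPM in cluster 0 of AF76, and that cluster gave 17.2% of its UMIs, against 1.59% for SESN1.

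**Figure D1:**
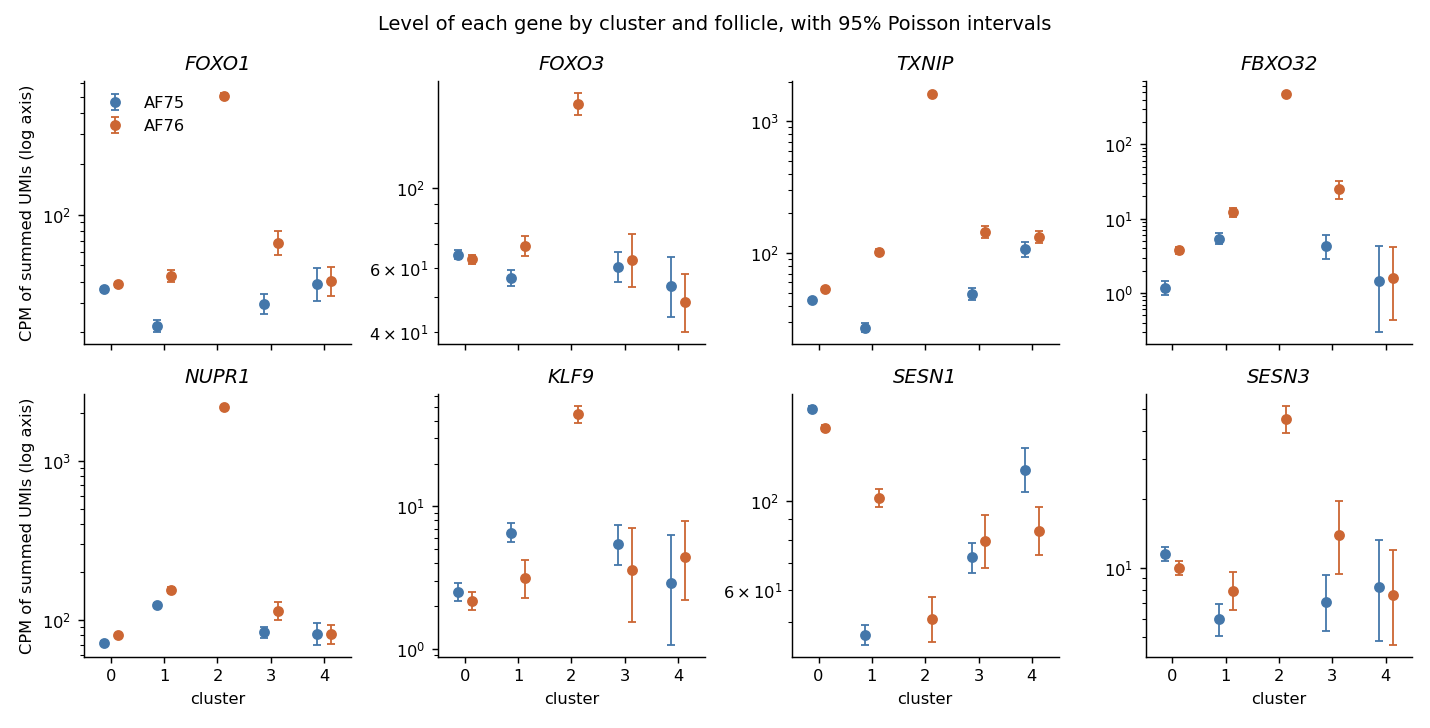
CPM of each gene (log axis) in clusters 0 to 4 of AF75 (blue) and AF76 (orange), with 95% Poisson intervals as bars. Cluster 2 has cells of AF76 alone, and in it 7 genes lie above every other cluster while SESN1, at 50.8 CPM, lies near its level in cluster 1 of AF75, 46.5 CPM.

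In multiples of cluster 0 of the same follicle, cluster 2 had 125 times the FBXO32 (111 to 141), 30.1 times the TXNIP, 27.0 times the NUPR1, 20.4 times the KLF9, 13.2 times the FOXO1, 4.47 times the SESN3 and 2.68 times the FOXO3, and 0.336 times the SESN1 (0.294 to 0.381). So 7 of the 8 were at least 1.5-fold higher and 1 was at least 1.5-fold lower. Of 9424 genes with at least 200 UMIs in either cluster, 38.4% were that much higher and 15.0% that much lower. The genes were chosen with this contrast known, so nothing is read from the counts. Cluster 2 is also where other marker genes differ. The granulosa list summed to 6428 CPM, against 27710 CPM in cluster 0, with INHA, the inhibin alpha subunit, at 2197 against 24510 CPM, but the receptor gene FSHR at 38.1 against 0.352 CPM and CYP11A1, the first enzyme of steroid synthesis, at 1966 against 1678 CPM. All 10 theca or stromal markers were counted, summing to 318 CPM against 15.2 CPM, led by TAGLN at 206 CPM and ACTA2 at 62.9 CPM, while the theca enzyme CYP17A1 had 0.425 CPM. The immune list summed to 16.2 CPM against 12.1 CPM, with 3 of its 10 genes at 0, PTPRC among them. The endothelial list summed to 27.0 against 11.3 CPM with CDH5 at 0, the oocyte list to 9.14 against 5.06 CPM with 6 of its 8 genes at 0, and the red blood cell list had 4 of its 5 genes at 0. The part of these genes in the levels of the 8 members was not tested.

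Over all cells, the ratio of AF76 to AF75 was 10.7 for FBXO32 (9.43 to 12.2), 3.13 for TXNIP (3.03 to 3.24), 2.08 for NUPR1 (2.03 to 2.13) and 1.85 for FOXO1 (1.77 to 1.93). The other 4 lay between 1.04 for SESN1 and 1.15 for KLF9. Thus 4 of the 8 were at least 1.5-fold higher in AF76 and 0 were at least 1.5-fold lower, where 1.8% of 10049 genes with at least 200 UMIs were that much higher and 3.85% that much lower. These ratios turn on cluster 2. When its cells were left out, FBXO32 stood at 2.22 (1.92 to 2.59), TXNIP at 1.53 (1.48 to 1.59), FOXO1 at 1.23 (1.17 to 1.28), NUPR1 at 1.05 (1.02 to 1.08) and KLF9 at 0.656 (0.558 to 0.769). Then 2 of the 8 were at least 1.5-fold higher and 1 lower, with 0.771% and 4.68% of 9982 genes past the same folds.

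Within cluster 0, the largest, FOXO1 and TXNIP were closer between the follicles than over all cells without cluster 2, while FBXO32 and NUPR1 were further apart. FOXO1 had a ratio of 1.07 (1.02 to 1.12), TXNIP 1.21 (1.16 to 1.26), NUPR1 1.12 (1.08 to 1.16), FOXO3 0.972 (0.935 to 1.01), SESN1 0.897 (0.875 to 0.919) and SESN3 0.870 (0.791 to 0.958). FBXO32 alone passed 1.5-fold, at 3.22 (2.54 to 4.13), among the 7 members with at least 200 UMIs, and 0 were lower. Of 9466 genes, 0.359% were that much higher and 1.41% that much lower. FBXO32 reached 200 UMIs in AF76 alone, with 320 there and 88 in AF75. Its shares of cells in cluster 0 are those from which no expression is read, so nothing is read from its passing. The 3 genes CEMIP, CCDC80 and DEFB1, which marked cluster 2 at 1878 CPM, summed to 0.742 CPM for AF75 within cluster 0 and to 12.4 CPM for AF76. Per 1000 CPM of these genes, the AF76 excess in cluster 0 was 223 CPM of FBXO32, 792 of TXNIP, 211 of FOXO1 and 708 of NUPR1. Cluster 2 itself held 250, 855, 270 and 1148. For FOXO3, KLF9, SESN1 and SESN3 the AF76 level in cluster 0 was lower instead, by 156, 29.6, 1499 and 128, where cluster 2 held 90.6, 23.5, 27.1 and 23.9. In cluster 4 the same measure gave 5.79 for FBXO32, 963 for TXNIP, 53.0 for FOXO1 and -10.2 for NUPR1. After cells with a UMI of the 3 genes were left out of cluster 0, the FBXO32 ratio was 2.28. Whether free RNA or mixed barcodes carried these UMIs was not tested.

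**Figure D2:**
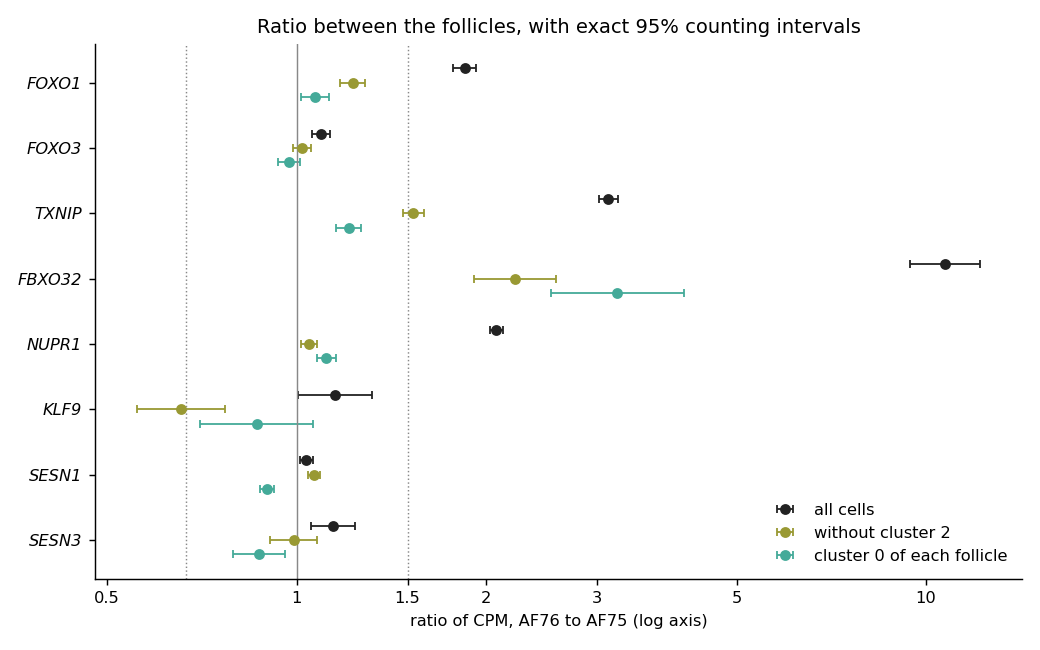
Ratio of CPM in AF76 to AF75 (log axis) for each gene over all cells (black), without cluster 2 (olive) and in cluster 0 alone (green), with exact 95% counting intervals and dotted lines at 1.5-fold either way. FBXO32, TXNIP, NUPR1 and FOXO1 lie past 1.5 over all cells, and without cluster 2 NUPR1 moves to 1.05 and FOXO1 to 1.23.

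In clusters 1 and 3 the ratios of FOXO1 and TXNIP were larger than in cluster 0. Cluster 1 had ratios of 3.75 for TXNIP (3.42 to 4.11), 2.19 for SESN1 (2.03 to 2.37) and 1.97 for FOXO1 (1.75 to 2.21). These were 3 of the 5 members with 200 UMIs there, against 6.31% of 7594 genes at least 1.5-fold higher in AF76. Of the same 5, 0 were that much lower, against 7.8% of genes. Under 200 UMIs and so not counted, KLF9 had 0.483 (0.339 to 0.676), FBXO32 2.25 (1.79 to 2.84) and SESN3 1.34 (1.04 to 1.72). Cluster 3, the dividing cells, had 2.96 for TXNIP (2.54 to 3.45) and 2.30 for FOXO1 (1.85 to 2.84), 2 of 5 against 2.44% of 4754 genes higher, and 0 members against 6.14% lower. Some of these AF76 cells carried the marker genes of cluster 2. The 35 cells of cluster 1 with at least 3 UMIs of CEMIP, CCDC80 and DEFB1 had 763 CPM of TXNIP and 225 CPM of FOXO1, while the 803 cells without one had 64.2 and 34.2 CPM. Those 803 cells still lay above cluster 1 of AF75, at 27.3 and 21.9 CPM. In cluster 3 of AF76 the 6 cells with at least 3 such UMIs had 1222 CPM of TXNIP and 509 CPM of FOXO1. The 97 cells without one had 98.2 and 52.1 CPM, above the 49.1 and 29.5 CPM of cluster 3 of AF75. Cluster 1 of AF75 had 8810 CPM of the cumulus marker list and that of AF76 1465 CPM, so the cells under this number differed between the follicles, and its part in the ratios was not tested.

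AF75, which had no cells in cluster 2, showed a split of its own. Against cluster 0, cluster 1 had 4.62 times the FBXO32 (3.51 to 6.10), with a UMI in 4.28% of cells, also a share from which no expression is read. It had 2.60 times the KLF9 (2.10 to 3.21) and 1.73 times the NUPR1 (1.66 to 1.81), but 0.608 times the FOXO1, 0.618 times the TXNIP, 0.517 times the SESN3 and 0.275 times the SESN1. FBXO32 and KLF9 had under 200 UMIs in each cluster, and among the other 6 members 1 was at least 1.5-fold higher and 4 lower, where 7.25% of 9370 genes were higher and 13.4% lower. At the finer resolution the FBXO32 level of AF75 ran from 0.622 to 10.7 CPM over 8 groups of at least 50 cells. The low end came from a group of 145 cells and rests on hardly any UMIs. The group with 10.7 CPM had the lowest FOXO1, 15.4 CPM, and the lowest SESN1, 21.4 CPM. In AF76 the ratios of cluster 1 to cluster 0 were 3.23 for FBXO32, 1.93 for NUPR1 and 1.92 for TXNIP, 3 members higher and 0 lower of 7, beside 2.97% and 2.66% of 9400 genes. FOXO1 stood at 1.12 there (1.03 to 1.22). The 35 AF76 cells of cluster 1 with at least 3 UMIs of CEMIP, CCDC80 and DEFB1 held 84 of its 169 FBXO32 UMIs. Among AF76 cells with 0 such UMIs, FBXO32 had 3.92 CPM in cluster 1 and 2.68 CPM in cluster 0. In the same order NUPR1 had 109.8 and 74.9 CPM, and TXNIP 64.2 and 49.99 CPM. So in those cells none of the 3 was 1.5-fold higher in cluster 1. This cluster is not stable in AF76: its 946 cells became 102 without integration, 129 with 20 components and 126 with another random seed, and FOXO1 then stood at 4.65, 1.90 and 1.84 times cluster 0.

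Co-expression across cells was taken as Pearson's r of log2(1 + UMIs) after thinning to 5000 UMIs, a description with no test, since all cells of a follicle share a library. In AF75, over 9343 cells, the 28 pairs had a median r of 0.0039 and lay between -0.0283 and 0.0426, too weak to read a relation from. The highest was FOXO3 with SESN1, and SESN1 was seen in 44.2% of cells with FOXO3 (42.2% to 46.2%) and in 40.1% of those without (38.9% to 41.2%). In AF76, over 7738 cells, the median was 0.138 and 9 pairs reached 0.2. FBXO32 with NUPR1 had 0.595, TXNIP with NUPR1 0.575, TXNIP with FBXO32 0.56, FOXO1 with TXNIP 0.488, FOXO1 with FBXO32 0.486 and FOXO1 with NUPR1 0.456. SESN1 went the other way, down to -0.111 with NUPR1. Without cluster 2 the 28 pairs had a median of 0.0204 and a highest value of 0.181. So most of the relation over all cells of AF76 lay between cluster 2 and the rest. Within cluster 2, over 578 cells, the median was 0.0595. FBXO32 with NUPR1, at 0.272, was the 1 pair past 0.2, FOXO1 with FBXO32 had 0.161, and TXNIP with NUPR1 had -0.02. Some smaller clusters of AF76 held higher values. In cluster 1, over 945 cells, 6 pairs reached 0.2, led by TXNIP with NUPR1 at 0.431. In cluster 3, over 119 cells, 9 pairs did, led by the same pair at 0.614. Cluster 4 had 1 such pair, at 0.442, and cluster 0 had 0. The part of cells with the marker genes of cluster 2 in these values was not tested.

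**Figure D3:**
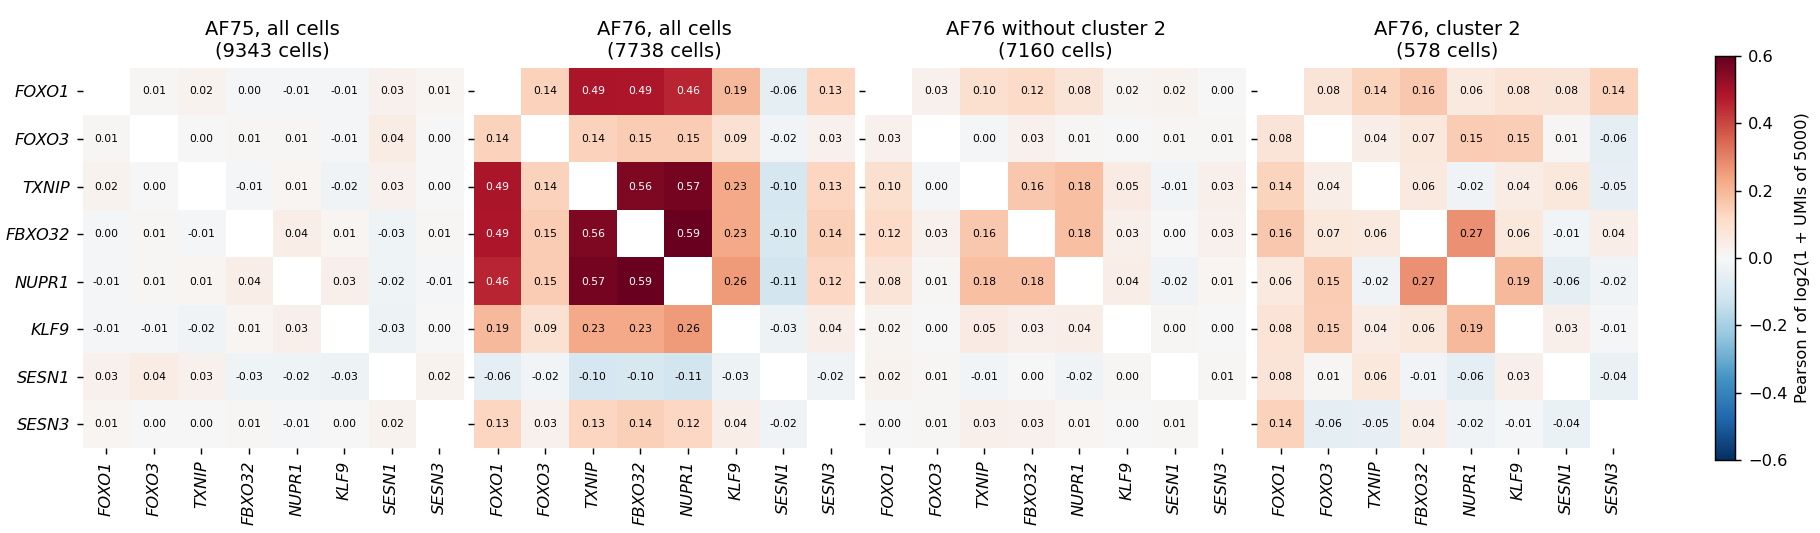
Pearson's r of each pair of genes across cells, colored from -0.6 (blue) to 0.6 (red), in AF75, in AF76, in AF76 without cluster 2 and in cluster 2. The block of FOXO1, TXNIP, FBXO32 and NUPR1 between 0.456 and 0.595 appears in AF76 with all its cells, and the same pairs reach at most 0.181 without cluster 2 and 0.272 within it.

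Joint detection gave the same picture in shares of cells. In AF76, FBXO32 had a UMI in 23.3% of the thinned cells with FOXO1 (21.3% to 25.3%) and in 2.69% of those without (2.29% to 3.13%). In AF75 the shares were 0.886% (0.458% to 1.54%) and 0.989% (0.784% to 1.23%), with no difference beyond their intervals. Within cluster 2 they were 73.9% (69.7% to 77.7%) and 59.0% (48.7% to 68.7%). How many other pairs of genes differ as much there was not computed, and these cells share 1 library, so no relation is read from it. All of FOXO1, TXNIP, FBXO32 and NUPR1 were seen together in 325 of 578 cells of cluster 2, 56.2% (52.1% to 60.3%). The same was true of 9 of 5889 cells of cluster 0 and 21 of 945 cells of cluster 1 in AF76, and of 1 of 9343 cells in AF75. No cell of cluster 2 lacked all of these genes, 0 of 578. Taken singly, FOXO1 was seen in 82.7% of these thinned cells, TXNIP in 95.5%, FBXO32 in 71.3% and NUPR1 in 96.0%. The joint share expected from these single shares was not computed, so no relation within cluster 2 is read from the joint counts.

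**Figure D4:**
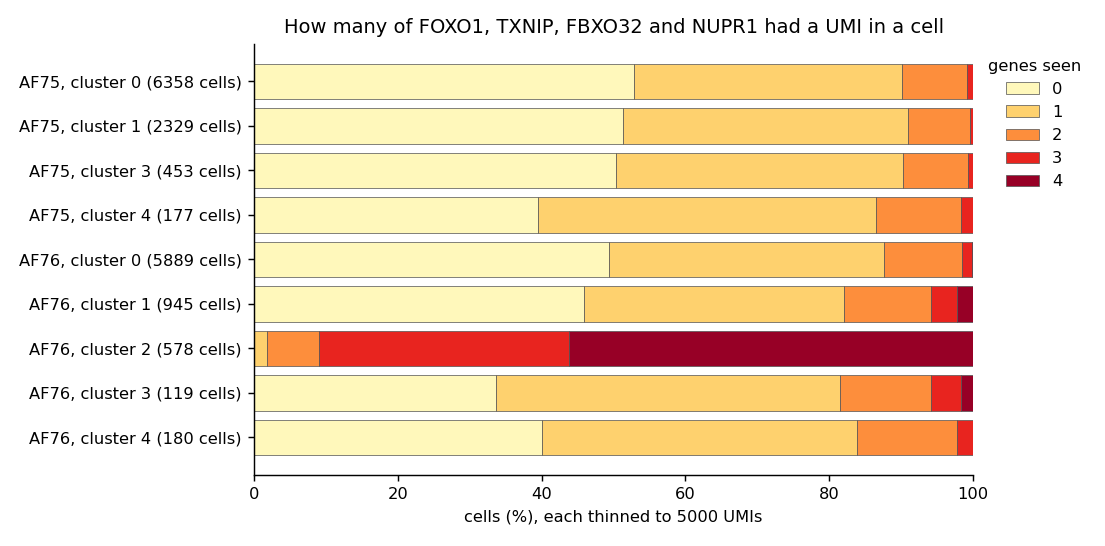
Share of cells (%, each thinned to 5000 UMIs) in which 0 to 4 of FOXO1, TXNIP, FBXO32 and NUPR1 had a UMI, by follicle and cluster. In cluster 2 of AF76, 56.2% of cells had all 4 and 0 cells had none, while 52.9% of cluster 0 cells in AF75 and 49.4% in AF76 had none.

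Among all genes, 1 other FOXO target varied most like FOXO1, TXNIP, FBXO32 and NUPR1 across the cells of AF76. SELENOP, the plasma selenium carrier, had the highest r of 9846 genes with FOXO1 (0.567), TXNIP (0.691), FBXO32 (0.663) and NUPR1 (0.676), and the next 2 places were held by other members. These were TXNIP and FBXO32 for FOXO1, NUPR1 and FBXO32 for TXNIP, NUPR1 and TXNIP for FBXO32, and FBXO32 and TXNIP for NUPR1. The likeness was not mutual for FOXO1, which ranked 8 for TXNIP, 9 for FBXO32 and 13 for NUPR1. The members were chosen with the FBXO32 level of a group of AF76 cells known, so nothing is read from their places. Without cluster 2, SELENOP had r of 0.133 with FOXO1, 0.241 with TXNIP, 0.246 with FBXO32 and 0.225 with NUPR1. In AF75 the leading partners were weak, HADH for FOXO1 (0.0796) and SOX9 for FBXO32 (0.111). Only SESN1 had partners past 0.2 there, HADH (0.251), ANKRD22 (0.222) and AMIGO2 (0.22), and the same genes led for SESN1 in AF76 at 0.144 to 0.158. Within cluster 2 other partners came first, NCOA4 for FOXO1 (0.312) and GADD45A, a DNA damage and arrest gene, for FBXO32 (0.391), both named here after their values were seen. Over 16 groups of follicle and fine cluster, the genes most like FOXO1 in log2(CPM + 1) were SYT2, TAX1BP1, MLLT3, ACBD6 and KANK1, with r from 0.962 to 0.97, and 0.763 to 0.853 without the group of cluster 2. Those most like FBXO32 were MYLIP, MRC2, PNRC1, MDK and ENSSSCG00000029289, with r from 0.942 to 0.955, and 0.78 to 0.907 without it. The 16 groups share 2 libraries.

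The barcodes outside the limits were not used for the levels above, but they come from the same 2 libraries. They are split here by genes that marked cluster 2 in these data, so their levels are a description and no independent check. Of 7397 barcodes of AF76 with under 2000 genes, 287 had at least 3 UMIs of CEMIP, CCDC80 and DEFB1. They held FOXO1 at 599 CPM (544 to 658), TXNIP at 1561 CPM (1471 to 1655), FBXO32 at 525 CPM (474 to 581) and NUPR1 at 2745 CPM (2626 to 2869), with SESN1 at 61.2 CPM (44.4 to 82.1). The other 7110 held 107, 360, 52.7 and 521 CPM, with SESN1 at 132 CPM. The cut of 3 UMIs is a fixed count, and the marked barcodes were deeper, with a median of 2341 UMIs against 1158. How many of the other barcodes fell under the cut through low depth was not tested. FOXO3, KLF9 and SESN3 also differed between the marked and the other barcodes, at 168 against 60.8, 51.4 against 6.67 and 30.6 against 13.7 CPM. The share of all genes that differ as much between these barcodes was not computed, so nothing is read from the differences. The 4595 such barcodes of AF75 held FOXO1 at 33.0 CPM (29.1 to 37.3), TXNIP at 37.1 CPM (33.0 to 41.7), FBXO32 at 4.62 CPM (3.24 to 6.40) and NUPR1 at 84.7 CPM (78.3 to 91.4). Of these, FBXO32 lay above its 2.37 CPM (2.09 to 2.67) in the kept cells of AF75. An empty droplet and a small cell cannot be told apart among these barcodes. Of barcodes with over 5000 genes, 23 with the marker genes had 376 CPM of FOXO1 and 278 CPM of FBXO32, and the other 143 had 46.9 and 6.76 CPM.

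**Figure D5:**
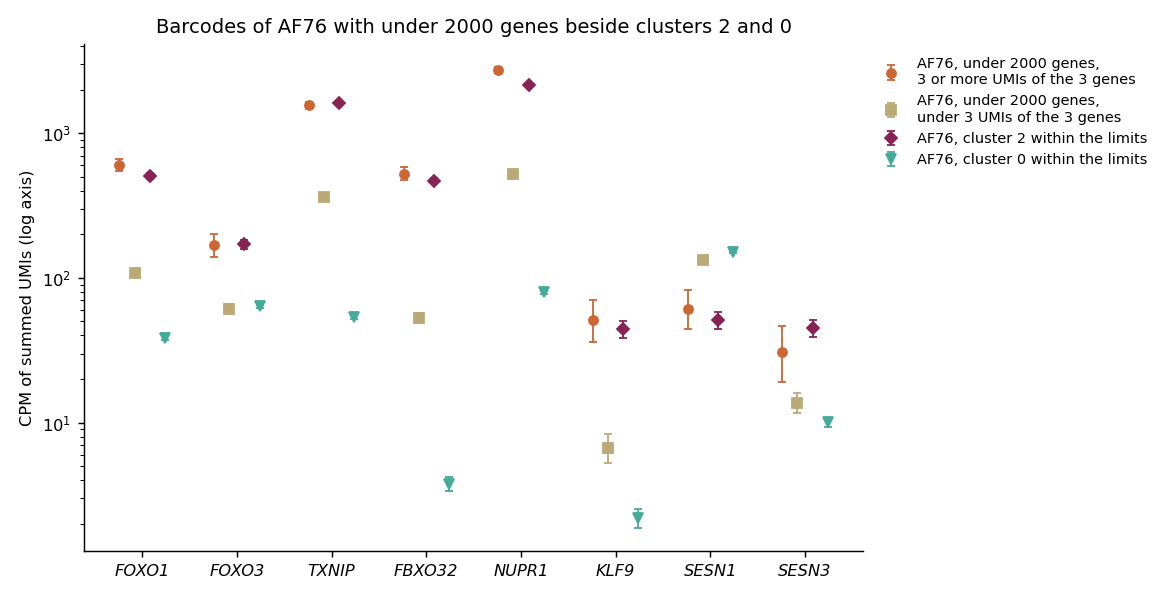
CPM (log axis, 95% Poisson intervals) of each gene in AF76 barcodes with under 2000 genes, split by UMIs of the 3 genes CEMIP, CCDC80 and DEFB1, beside clusters 2 and 0. The barcodes with at least 3 such UMIs lie near cluster 2, with FBXO32 at 525 and 470 CPM, and the rest lie between the clusters for FOXO1, TXNIP, FBXO32 and NUPR1. The split is a fixed count, and median depth was 2341 UMIs in the former and 1158 in the rest.

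The other genes of the pathway were read from lists, beside the same background. Of 32 other known FOXO targets with at least 200 UMIs, 18 were at least 1.5-fold higher in cluster 2 than in cluster 0 of AF76 and 3 lower, against 38.4% and 15.0% of all genes. SELENOP was 60.9 times higher (2316 against 38.0 CPM), YPEL3 17.0 times and BCL2L11, the death gene BIM, 10.1 times (49.9 against 4.94 CPM). PDK4, which blocks pyruvate entry to the mitochondrion, went the other way. It stood at 555 against 2932 CPM, a ratio of 0.189, and the other 2 lower targets were KLF6 at 0.517 and CDKN2B at 0.639. Between the follicles 4 of 33 were higher and 0 lower in AF76, against 1.8% and 3.85% of all genes, led by SELENOP (6.04), BCL2L11 (2.11) and YPEL3 (1.86). Without cluster 2 the counts were 3 and 1 of 33, and in cluster 0 alone 0 and 1 of 32.

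For the lists upstream and around the pathway the same background holds, 38.4% of all genes higher and 15.0% lower. Near it lay the first list: of 15 genes of insulin, PI3K and AKT signalling, 7 were higher and 2 lower in cluster 2, with a median log2 ratio of 0.37 against 0.35 over all genes. The higher ones included the insulin receptor INSR (63.1 against 5.68 CPM) and IRS1 (8.55 times), while the catalytic subunit PIK3CA (0.331) and SGK3 (0.222) were lower. Of 11 other FOXO regulators, 6 were higher and 0 lower, led by the deacetylase SIRT1 at 3.93 times. The list of genes induced by follicle-stimulating hormone had 2 higher and 7 lower of 12, with CCND2 at 5.84 times and INHBA at 1.56 times, and AREG at 0.0383, INHA at 0.0897 and SCARB1 at 0.101. On the list of atresia and apoptosis genes 7 were higher and 3 lower of 13. CLU, long used as an atresia marker, was 4.94 times higher and the survival gene BCL2L1 2.44 times, while the death gene BID was at 0.551 and the lysosomal protease CTSD at 0.661. So the list has members both ways.

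The partners of single members were read against the same 38.4% and 15.0% of all genes, and the lists around TXNIP and FBXO32 lay near the share higher. Around NUPR1, 5 of 10 genes of the integrated stress response were higher, DDIT3 at 2.76 times, and 5 lower, TRIB3 at 0.124 and the chaperone HSPA5 at 0.177. Around KLF9, 5 of 8 glucocorticoid or progesterone response genes were higher, ZBTB16 at 10.3 times, TSC22D3, which is also on the list of FOXO targets, at 9.33 times and FKBP5 at 3.65 times, and 1 was lower, the progesterone receptor PGR at 0.102. Around TXNIP, its relatives ARRDC3 and ARRDC4 were 3.66 and 2.41 times higher and the glucose sensor MLXIP 3.02 times, 4 of 9 in all, with 0 lower. Around FBXO32, 2 of 5 ubiquitin ligase genes were higher, FBXO30 at 2.08 times and FBXO21 at 1.56 times. Between the follicles, over all cells, these partner lists barely moved past 1.5-fold, beside the 1.8% and 3.85% of all genes. The stress response list had 0 higher and 2 lower of 10, ASNS at 0.542 and CHAC1 at 0.631, and the lists around KLF9, TXNIP and FBXO32 and of the other FOXO regulators had 0 either way. Of the insulin, PI3K and AKT genes 2 of 15 were higher in AF76, IRS1 at 1.73 and INSR at 8.47 against 5.65 CPM, and SGK1 was lower at 0.549. The list of hormone-induced genes had AREG higher at 1.92 and INHBA and VEGFA lower at 0.257 and 0.635, and that of atresia and apoptosis had CLU higher at 1.57 and FAS lower at 0.601.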

How the data were processed

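The authors sequenced 10x Genomics 3' libraries of granulosa cells from 2 follicles and ran CellRanger 6.0.2 on Sscrofa11.1. The deposited matrices hold whole UMI counts, not normalized, for 22342 features, and their totals were 125409747 (AF75) and 127414267 (AF76). Of these features 7356 carry an ID alone, 1042 of which were named from a reference table of gene names. Barcodes with 2000 to 5000 genes and under 7% mitochondrial UMIs (13 genes) were kept, with 111226504 and 108920601 UMIs. Cells were clustered with Seurat 5.3.0 in R 4.3.3 (anchor integration, 2000 variable genes without the members and the list genes, 40 components, the lowest resolution that gave 6 clusters, 0.22). Doublets were kept. The own threshold of Scrublet (scanpy 1.11.5) called 0 and 1 cells, so removing the 6.9% of cells with the highest score was an alternative.

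UMIs were summed by group, with exact Poisson intervals for CPM, Clopper-Pearson intervals for shares and exact conditional intervals for ratios (scipy 1.17.1), all at 95% and for counting error only. With 1 library per follicle no test was made. A gene counted as higher or lower past 1.5-fold where 1 of the groups had 200 UMIs of it or more. The steps were tested on simulated data. Named genes were the members, up to 3 with the largest and 3 with the smallest ratio of each list in cluster 2 against cluster 0 of AF76 and in AF76 against AF75, the 5 genes most like FOXO1 and FBXO32 over groups, and the 3 most like each member across cells. The members and lists were chosen with earlier results of these data known. Alternatives changed the limits, doublets, depth, summary, library size, clustering and correlation. Promoters are the 250 bases before RefSeq gene starts. Some genes that this rule takes are counted in their lists and not reported here by name.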

Additional observations from a re-analysis of the deposited data

Results flagged for a closer look

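In 4 of 24 pairs of gene and cluster, the ratio to cluster 0 lay above 1 in one follicle and below 1 in the other, with counting intervals apart from 1, and with 1 library per follicle the difference was not tested. FOXO1 in cluster 1 stood at 0.608 times cluster 0 in AF75 and 1.12 times in AF76, and the AF76 value became 0.903 after the cells with the highest Scrublet scores were removed. FOXO3 in cluster 1 stood at 0.864 and 1.09 times, and TXNIP at 0.618 and 1.92 times. FOXO1 in cluster 3 stood at 0.819 times in AF75 and 1.76 times in AF76. Among AF76 cells without a UMI of CEMIP, CCDC80 and DEFB1, FOXO1 had 37.2 CPM in cluster 0, 34.2 CPM in cluster 1 and 52.1 CPM in cluster 3. So in those cells FOXO1 was not higher in cluster 1 than in cluster 0.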

How the results depend on the processing

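Of 370 values recomputed under alternatives, 242 stayed within their spread or within 1.5 times the count and 121 moved. The other 7 changed sign, counted only where the interval of the reported value lay apart from 0. On the log2 scale of AF76 over AF75 (reported values 0.89 for FOXO1, 1.65 for TXNIP, 3.42 for FBXO32 and 1.05 for NUPR1), the limits of 500 to 6000 genes gave 1.04, 1.88, 3.65 and 1.33, all deposited barcodes 1.07, 1.93, 3.67 and 1.41, thinned cells 1.24, 2.16, 4.29 and 1.47, and the mean of per-cell CPM 1.34, 2.32, 4.28 and 1.59. Without cluster 2 they were 0.29, 0.62, 1.15 and 0.065, KLF9 turned to -0.61 and SESN3 to -0.017, and 2 members were past 1.5-fold higher and 1 lower. In cluster 0, thinning left FBXO32 under 200 UMIs and 0 members higher, and leaving out cells with a UMI of CEMIP, CCDC80 or DEFB1 (chosen after seeing the data) gave FBXO32 1.19. For cluster 1 over cluster 0 of AF76, SESN3 turned to 0.73 without integration, 0.14 with 20 components and 0.10 with another seed, with 6, 5 and 5 members higher and 1, 1 and 1 lower, and removing the highest Scrublet scores turned FOXO1 to -0.15 and left 1 member lower. In AF75, 20 components and the other seed gave 2 members higher. NUPR1 in cluster 5 of AF75 turned to -1.90 without 1 cell, an alternative chosen after seeing the data. The median correlation of AF76 was 0.0138 in cluster 0 alone and 0.0204 without cluster 2, the latter also added after seeing the data. Of the 23 pairs of AF76 with an r of at least 0.05 in size, 9 turned sign in cluster 0 alone and 2 without cluster 2. Of the correlations, the 370 values held only the medians, the pairs among FOXO1, TXNIP, FBXO32 and NUPR1, and the lowest pair. Apart from those set by the cells left out, the causes were not tested. No paired analysis was possible because each follicle is 1 library and no test was made. Depth limits FBXO32 and KLF9 most, with 263 and 407 UMIs in AF75.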
